A study of Equus caballus with 19 samples.

Results

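The transcripts described here are those of the receptor ACVR1B and of 4 SMAD proteins, SMAD1, SMAD5, SMAD9 and SMAD6, in the blood of young horses. They were read by 13 of the 43384 probes of a horse microarray. The probes of SMAD1 and SMAD5 were named through the RefSeq accession that the array design gives them. The single probes of SMAD6, SMAD9 and ACVR1B took their names from the study's list of genes that differ between its treatments, so these 3 genes were selected on the contrast of EE-treated with control horses, and that contrast is given for them as a description, without a test. The horses were prepubertal Welsh foals, less than a year old when the treatment began. The 9 control horses (6 males and 3 females, called impoverished in the labels) were kept in individual stalls with little social and sensory stimulation, and the 10 EE-treated horses (4 males and 6 females, called enriched) received an environmental enrichment of pasture with companions, varied feed, objects, odors and music. Venous blood was collected at 12 weeks, and the RNA of each horse was read on 1 array with 1 dye.

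Receptors of the TGF-β family are pairs of kinases. A ligand joins a type 2 receptor to a type 1 receptor such as ACVR1B, the activin receptor ALK4, which passes activin, nodal and some GDF signals to SMAD2 and SMAD3. Bone morphogenetic proteins (BMPs) act through other type 1 receptors that phosphorylate SMAD1, SMAD5 and SMAD9 (also called SMAD8), the activating SMADs of the BMP branch, which enter the nucleus with SMAD4. SMAD6 is an inhibitory SMAD that acts mainly on the BMP branch, and its gene is itself induced by BMP signals. In blood-forming tissue these pathways take part in stem cell maintenance, red cell formation and the restraint of immune cells. An array measures transcripts and says nothing of the phosphorylation that switches these proteins on.

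Signals are given as log2 of the background-corrected intensity after each array was scaled to a 75th percentile of 500. Such a signal depends on the probe as well as on the transcript, so signals were compared between horses and not between probes. A spot counts as well above background when the scanner software places it clearly over the local background. This held for 61.2% to 69.6% of spots, depending on the array, and 0 spots were saturated. The tissue label could be checked on a few blood genes only. CD14 of monocytes, CD2 of T cells, ITGA2B of platelets and HBB of red cells were well above background on all 19 arrays, while no gene of the lists for B cells and neutrophils could be named through RefSeq. SLC4A1, the other named gene of the red cell list, was well above background on at most 1 array with each of its probes. In whole blood, fewer cells of a type and less RNA per cell cannot be told apart.

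All 5 genes had a probe that was well above background on every array. For ACVR1B, SMAD9 and SMAD6 this was the single probe, and for SMAD1 and SMAD5 it was the brightest, called the main probe. The other 8 probes, 1 of SMAD1 and 7 of SMAD5, were dim. They were well above background in 2 of 152 readings, and in 54 readings the software had replaced the signal by a value near its own error. The levels below are those of the main probes.

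ACVR1B, the receptor, had in control horses a lowest signal of 4.47, a median of 4.72 and a highest of 5.09. In EE-treated horses the lowest was 4.74, the median 5.22 and the highest 5.59. The groups overlapped: 6 of the 10 EE-treated horses were above the highest control horse, and 6 of the 9 control horses were below the lowest EE-treated one. The control mean was 4.78 ± 0.21 (SD, n = 9) and the EE mean 5.19 ± 0.29 (SD, n = 10). The difference, EE minus control, was 0.40 (standard error 0.12), a ratio of 1.32.

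SMAD1, an activating SMAD, ranged in control horses from 7.06 to 8.42 with a median of 8.06. In EE-treated horses it ranged from 6.50 to 8.98 with a median of 8.23. The EE-treated horses lay on both sides of the control horses: 4 were above the highest control horse, and horse643 was below all the others. The control mean was 7.90 ± 0.46 (SD, n = 9) and the EE mean 8.03 ± 0.71 (SD, n = 10). The difference of 0.13 (standard error 0.27, 95% interval -0.42 to 0.68) was smaller than the spread between horses, with an adjusted p of 0.841 in limma and a p of 0.648 in a two-sided exact permutation test. With array brightness as a covariate its sign turned, to -0.0070, and on the 16 arrays of scan 1 it was 0.016. Single horses moved it from 0.025, without EE-treated horse646, to 0.30, without EE-treated horse643.

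SMAD1 was the member that varied most from horse to horse, though with 1 array per horse the animal and its array cannot be told apart. The brightest horse had 5.60 times the signal of the dimmest, and the SD within the groups was 0.61. Of the 24436 probes well above background on every array, 94.6% had a smaller SD. The same share was 59.6% for SMAD5, 44.6% for SMAD6, 39.0% for ACVR1B and 29.2% for SMAD9. On average SMAD1 lay 0.44 from the group means on slide 1 and -0.30 on slide 2. Within the groups its r with array brightness was -0.38 (permutation p = 0.148, adjusted p = 0.494).

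SMAD5, another activating SMAD, ranged from 3.61 to 4.47 with a median of 4.08 in control horses. In EE-treated horses it ranged from 3.54 to 4.80 with a median of 4.06. The groups covered nearly the same range, and EE-treated horse646 stood alone at the top. The control mean was 4.06 ± 0.27 (SD, n = 9) and the EE mean 4.02 ± 0.35 (SD, n = 10). The difference of -0.035 (standard error 0.15, 95% interval -0.34 to 0.27) was within the spread between horses, with an adjusted p of 0.930 in limma and a p of 0.816 in a two-sided exact permutation test. Other processing gave -0.084 to -0.011. With single horses left out it was -0.12 without EE-treated horse646, 0.018 without EE-treated horse649, 0.017 without control horse647 and 0.0022 without EE-treated horse475.

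SMAD9, the remaining activating SMAD, had in control horses a lowest signal of 3.83, a median of 4.11 and a highest of 4.59. In EE-treated horses the lowest was 4.30, the median 4.61 and the highest 4.76. The groups overlapped between control horse472, horse474 and horse471 and the lower EE-treated horses, and each of the 10 EE-treated horses exceeded the control mean. The control mean was 4.15 ± 0.27 (SD, n = 9) and the EE mean 4.55 ± 0.18 (SD, n = 10), which is 0.40 apart (standard error 0.11), a ratio of 1.32.

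SMAD6, the inhibitory SMAD, had in control horses a lowest signal of 2.83, a median of 3.16 and a highest of 3.79. In EE-treated horses the lowest was 3.48, the median 3.78 and the highest 4.03. Of the 9 control horses 6 were below every EE-treated horse, and 5 of the 10 EE-treated horses were above every control horse. The control mean was 3.26 ± 0.35 (SD, n = 9) and the EE mean 3.79 ± 0.17 (SD, n = 10), which is 0.54 apart (standard error 0.13), a ratio of 1.45. SMAD6 was near the lower end of what the arrays resolve: the dimmest probe well above background lay between 2.29 and 3.37 on these arrays.

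**Figure D1:**
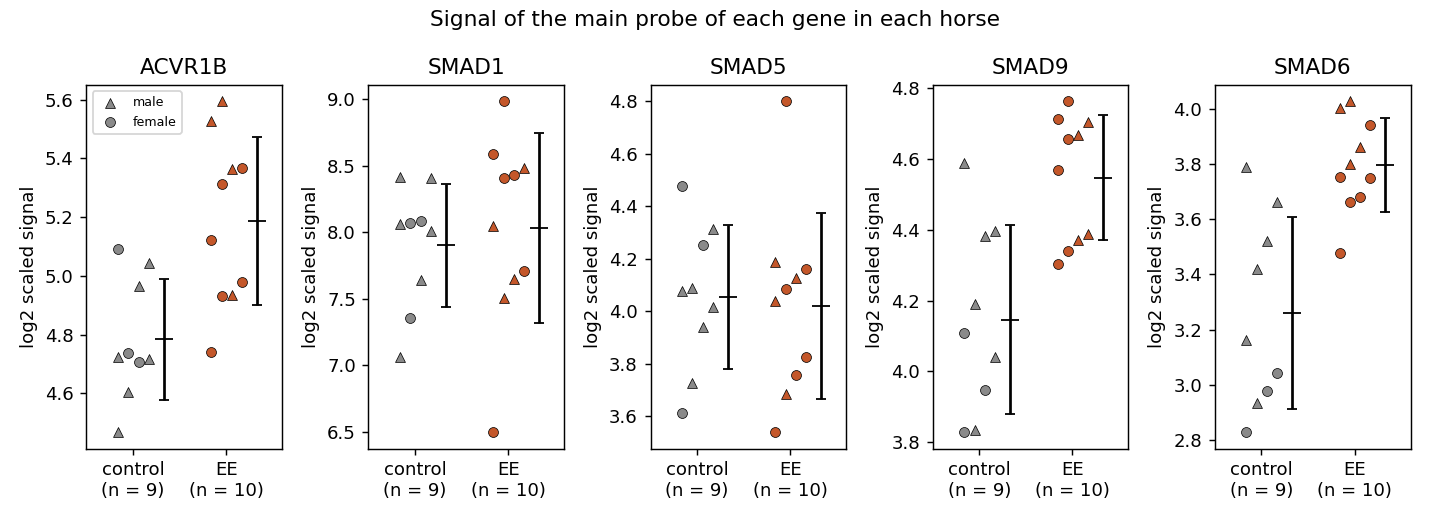
Signal of the main probe (log2, scaled to a 75th percentile of 500, with an axis of its own for each gene) in the 9 control and 10 EE-treated horses. Triangles are males, circles are females, and the bar beside each group is the mean ± SD; for SMAD6 6 of the 9 control horses lie below every EE-treated horse, while for SMAD1 and SMAD5 the groups overlap over most of their range.

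Over all probes, 510 of 43384 (1.18%) were higher in EE-treated horses at an unadjusted p under 0.005 and a difference of at least 20%, and 279 were lower. SMAD6, SMAD9 and ACVR1B were taken from a list made at this threshold, so their being above it is no result. In limma 0 probes passed an adjusted p of 0.05 (0%), while 3229 were higher (7.44%) and 1839 lower at an unadjusted p under 0.05. The random-variance test of the methods, run on the values used here, also passed 0, and its smallest adjusted p was 0.099. It had 3245 probes higher and 1848 lower at an unadjusted p under 0.05. The study reports a list at a low false discovery rate with this test on its own normalized values, so the results differ. The median difference of all probes was 0.064, and it depended on brightness. It was 0.19 for the 7880 probes with a mean signal from 0 to 1, 0.080 for the 2857 probes from 3 to 4, where SMAD6 lies, and 0.017 for the 2849 probes from 4 to 5, where the main probes of SMAD5, SMAD9 and ACVR1B lie. Control arrays were on average brighter, with an unscaled 75th percentile of 588 ± 102 (SD, n = 9) against 524 ± 134 (SD, n = 10) on EE arrays. With array brightness as a covariate the differences of SMAD6, SMAD9 and ACVR1B were 0.54, 0.36 and 0.38, and with normexp background correction and quantile normalization they were 0.090, 0.046 and 0.15. The part in them of the shift that varies with probe brightness was not tested.

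Each of the 5 slides held horses of both groups, and the differences were also taken within slides. SMAD6, SMAD9 and ACVR1B were chosen on this contrast in these same arrays, so a shared sign across slides is partly fixed by that choice. SMAD6 was higher in EE-treated horses on 5 of 5 slides, by 0.35 to 0.70, and SMAD9 on 5 of 5, by 0.22 to 0.67. ACVR1B was higher on 4 slides, by 0.43 to 0.56, and differed by -0.062 on slide 2. SMAD1 ran from -0.77 to 1.004 and SMAD5 from -0.30 to 0.29, with both signs among the slides. With slide as a block the differences were 0.51 for SMAD6, 0.38 for SMAD9, 0.38 for ACVR1B, 0.16 for SMAD1 and -0.025 for SMAD5. Positions 2 and 4 of a slide held control horses and positions 1 and 3 EE-treated horses, with horse475 on position 2 as the exception, so position and treatment cannot be told apart.

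**Figure D2:**
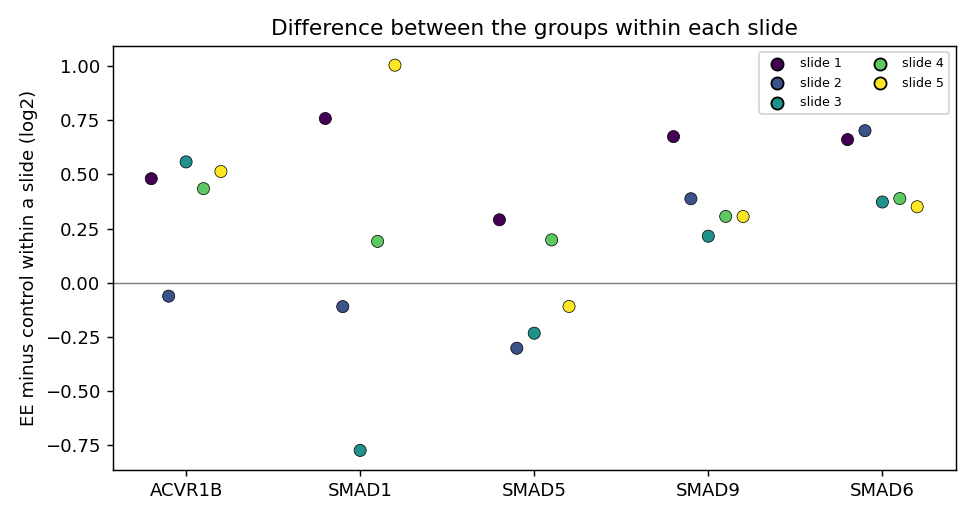
Difference EE minus control (log2 signal) of the main probe of each gene within each of the 5 slides, with 2 control and 2 EE arrays on slides 1 to 4 and 1 control and 2 EE arrays on slide 5. Each point is 1 slide. SMAD6 and SMAD9, chosen on this contrast, lie above 0 on all 5 slides, and SMAD1 and SMAD5 lie on both sides of 0.

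The balance between activating and inhibitory SMADs was followed in each horse as the mean log2 signal of SMAD1, SMAD5 and SMAD9 minus that of SMAD6. Its absolute size has no meaning, because it joins different probes, and only its change between horses was read. It ranged from 1.49 to 2.44 with a median of 2.20 in control horses, and from 1.18 to 2.36 with a median of 1.71 in EE-treated horses. The mean was 2.11 ± 0.32 (SD, n = 9) and 1.74 ± 0.35 (SD, n = 10), and 9 of 10 EE values were under the control mean. The difference of -0.37 contains SMAD6 and SMAD9, which were chosen on this contrast, and was not tested. With normexp, whose added offset shrinks differences of low signals, it was -0.031. Taken singly against SMAD6, the difference between the groups was -0.57 for SMAD5, -0.41 for SMAD1 and -0.13 for SMAD9. Each is the gene's own difference less that of SMAD6, so for SMAD5 and SMAD1 it mostly repeats the SMAD6 difference.

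The dim probes of SMAD1 and SMAD5 did not follow their main probes closely. For SMAD1, the second probe (A_69_P004681) was well above background on 0 arrays, and its correlation with the main probe after removing the group means was r = 0.20 (Spearman's rho = 0.37, n = 19, permutation p = 0.379 and 0.123). For SMAD5, r with the main probe lay between -0.084 and 0.50 over the 7 dim probes. The highest, for A_69_P004686, had rho = 0.49 and permutation p of 0.0318 for r and 0.0379 for rho, with an adjusted p of 0.228 for r over the 8 probe pairs, and r was 0.30 without EE-treated horse646 and horse649. Among themselves, the 7 dim SMAD5 probes had a median r of 0.21 over 21 pairs. All 7 had a higher mean in EE-treated horses, by 0.0044 to 0.58, opposite to the main probe. Dim probes in general lay higher: of all 4976 probes with a mean signal from 1 to 2, where these 7 lie, 65.9% were higher in EE-treated horses, with a median difference of 0.15. The 0.58 of A_69_P004688 was 0.16 without EE-treated horse642. For A_69_P003016 and A_69_P003017 the sign turned with single horses left out, at the lowest to -0.13 (without control horse645) and -0.042 (without EE-treated horse643). Of the 133 readings of the 7 probes, 2 were well above background.

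**Figure D3:**
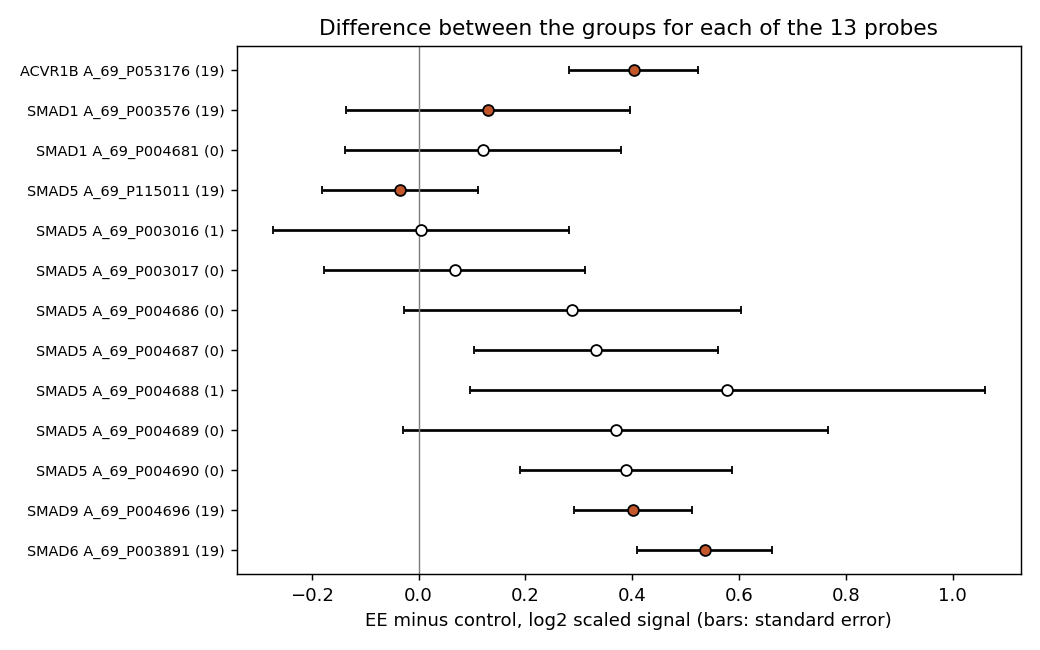
Difference EE minus control (log2 signal) of each of the 13 probes with its standard error. The number after each probe is that of the 19 arrays on which it was well above background; filled points are well above on all 19, and open points on 0 or 1. The dim SMAD5 probes lie at or above 0 with wide errors, and the main SMAD5 probe lies at -0.035.

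Across the 19 horses, the main probes were correlated after removing the group means, so that the difference between treatments plays no part, with p-values from permutations within the groups adjusted over the 10 pairs. SMAD9 and SMAD6, an activating and an inhibitory SMAD, varied together, with r = 0.76 (permutation p = 0.00072, adjusted p = 0.0072) and rho = 0.72 (p = 0.0025, adjusted p = 0.025). Without control horse472 and horse647, the farthest from the median, r was 0.63 (p = 0.0128). Within the groups r was 0.90 in control horses (n = 9) and 0.41 in EE-treated horses (n = 10), and the difference between these was not tested.

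The relation of SMAD9 and SMAD6 was also seen between whole slides. Both genes lay lowest on slide 2, on average -0.19 for SMAD9 and -0.24 for SMAD6 from the group means, and highest on slide 5, by 0.17 and 0.28. With slide as a block r was 0.64, and its adjusted p of 0.0659 no longer passed. Among the 9 pairs of horses that shared slide and treatment, the horse higher in SMAD9 was also higher in SMAD6 in 5. With quantile normalization r was 0.66 (adjusted p = 0.0635) and with normexp background correction 0.36 (adjusted p = 0.833). Over the alternatives tried the adjusted p ran from 0.0012 to 0.833. Slides also differed in scan and sex: slide 5 was the only one of scan 2 and held 3 males, and slide 2 held 3 females and 1 male. On scan 1 alone r was 0.72 (adjusted p = 0.0475), and centred on group and sex it was 0.77 (adjusted p = 0.0017).

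For the receptor ACVR1B, r was 0.48 with SMAD9 (permutation p = 0.0319, adjusted p = 0.156, rho = 0.47 with p = 0.0371 and adjusted p = 0.186) and 0.43 with SMAD6 (permutation p = 0.0468, adjusted p = 0.156, rho = 0.34 with p = 0.137 and adjusted p = 0.455). Without the 2 horses farthest from the median, r was 0.42 with SMAD9 (p = 0.0917) and 0.31 with SMAD6 (p = 0.187). Centred on group and sex, r was 0.67 (adjusted p = 0.0093, over the alternatives 0.0093 to 0.833) and 0.56 (adjusted p = 0.0261, over the alternatives 0.0161 to 0.854). With quantile normalization r was 0.33 with SMAD9 and 0.19 with SMAD6, and with normexp 0.078 and 0.16. With slide as a block it was 0.32 and 0.23, and among the 9 pairs of horses that shared slide and treatment, the horse higher in ACVR1B was also higher in SMAD9 in 7 and in SMAD6 in 7. The remaining 7 pairs, those with SMAD1 or SMAD5, had r between -0.13 and 0.080, with an adjusted p of 0.928 each. SMAD1 and SMAD5, which share a role, had r = 0.080.

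**Figure D4:**
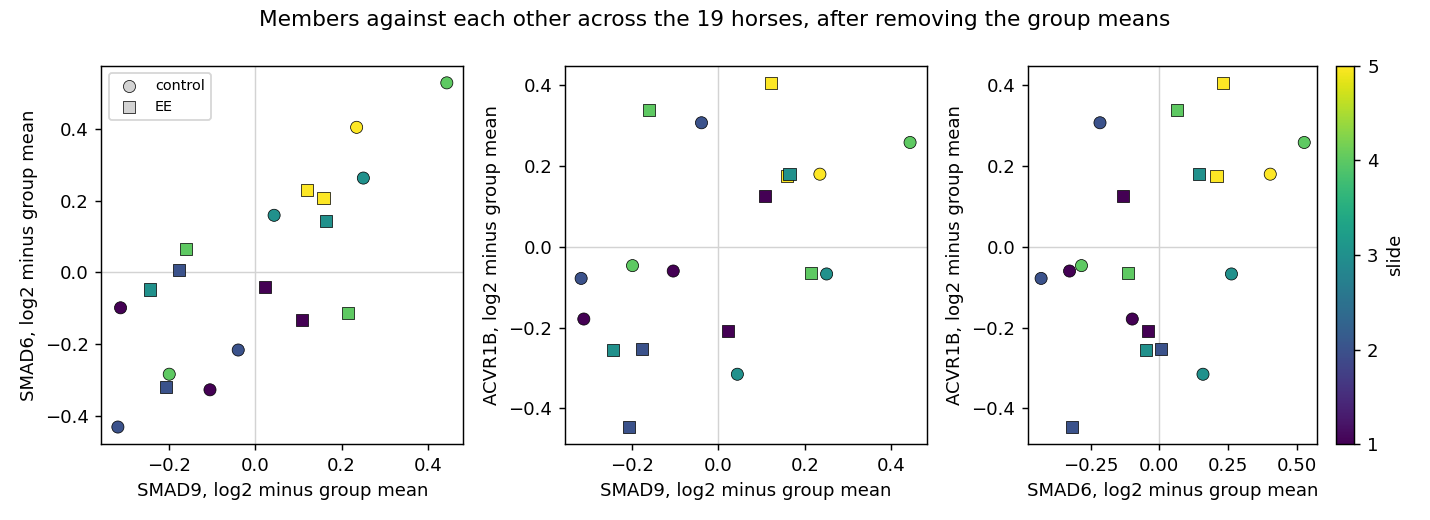
Signal of 1 member against another (log2, minus the mean of the horse's group) for SMAD9 and SMAD6, SMAD9 and ACVR1B, and SMAD6 and ACVR1B; each point is 1 of 19 horses, circles are control, squares are EE-treated, and the color gives the slide. SMAD9 and SMAD6 have r = 0.76, and the horses of slide 2 lie mostly low and those of slide 5 high in both.

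Sex was compared with treatment in the fit. SMAD6 was higher in males by 0.33 (standard error 0.11). In control horses its mean was 3.41 ± 0.32 (SD, n = 6) in males and 2.95 ± 0.11 (SD, n = 3) in females, and in EE-treated horses 3.92 ± 0.11 (SD, n = 4) and 3.71 ± 0.15 (SD, n = 6). The 3 control females lay between 2.83 and 3.04, and the 6 control males between 2.93 and 3.79. A two-sided exact permutation test of sex within the treatments gave p = 0.0055 for SMAD6, 1 of 5 genes so tested, and after adjustment over all 43384 probes limma gave an adjusted p of 0.829. At an adjusted p under 0.05, 23 probes differed by sex (0.053%), and 0 of the 5 main probes were among them. This test takes no account of slide, to which sex was tied. On slides 1 and 3 both control horses were male and both EE-treated horses female, slide 2 held 3 females and 1 male, and slide 5, where SMAD6 lay highest, held 3 males. With slide as a block the difference of SMAD6 was 0.22 (adjusted p = 0.772, over the alternatives 0.428 to 0.979), and with the deposited values 0.20. With normexp, whose added offset shrinks differences of low signals, it was 0.049. In 3 cases a male and a female shared slide and treatment, and SMAD6 was higher in the male by 0.18, 0.32 and 0.81. In the same cases ACVR1B was higher in the male in 3, by 0.19 to 0.40, SMAD9 and SMAD5 in 2 each, and SMAD1 in 0. The sex differences of SMAD9 and ACVR1B were 0.11 each, and those of SMAD1 and SMAD5 -0.054 and -0.049, with exact permutation p from 0.297 to 0.864. With slide as a block they were 0.0085 for SMAD9, -0.017 for ACVR1B, -0.035 for SMAD1 and 0.033 for SMAD5. The ACVR1B difference was 0.054 without EE-treated horse469 and 0.18 without control horse650.

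The difference between treatments was 0.51 in males and 0.76 in females for SMAD6, 0.29 and 0.60 for SMAD9, and 0.60 and 0.23 for ACVR1B. For SMAD1 it was -0.011 and 0.27, and for SMAD5 -0.017 and -0.085. The interaction, the male minus the female difference, was added after seeing the data. It was -0.28 for SMAD1, 0.067 for SMAD5, -0.30 for SMAD9, -0.25 for SMAD6 and 0.37 for ACVR1B. Its adjusted p-values for the 5 main probes were between 0.983 and 0.991 in limma. Over all probes 0 passed (0%), with 635 positive and 688 negative at an unadjusted p under 0.05. With 3 control females, the 95% intervals of the interaction were wide, from -1.50 to 0.94 for SMAD1, the widest, -0.61 to 0.74 for SMAD5, -0.77 to 0.17 for SMAD9, -0.72 to 0.22 for SMAD6 and -0.14 to 0.88 for ACVR1B.

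Of 71 other genes of the BMP and TGF-β pathways, 9 could be named through RefSeq, by 22 probes, of which 16 were well above background on at least 10 arrays. None of the other type 1 receptors, type 2 receptors or SMADs listed was among them. At an unadjusted p under 0.05, 2 of the 22 probes were higher in EE-treated horses, near the 7.44% of all probes, and 0 were lower, against 4.24% of all probes. At the threshold of p under 0.005 and at least 20%, 0 passed in limma, and 0 passed an adjusted p of 0.05. Their median difference was -0.0072, against 0.064 for all probes.

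Among ligands, TGFB1, which acts through SMAD2 and SMAD3, had a control mean of 10.07 ± 0.21 (SD, n = 9) and an EE mean of 10.33 ± 0.22 (SD, n = 10). The difference was 0.26 (standard error 0.11, exact permutation p = 0.0192, adjusted p = 0.357 in limma), and 8 of 10 EE values were over the control mean. MSTN, or myostatin, a ligand that can signal through ACVR1B, differed by 0.29 on its bright probe (standard error 0.13, exact permutation p = 0.0312, adjusted p = 0.386 in limma), with 8 of 10 horses above the control mean. The second MSTN probe was well above background on 1 array. For TGFB1 and MSTN the permutation test was run because limma gave an unadjusted p under 0.05. It repeats that contrast and is no independent support. The 9 probes of BMP4, a ligand of the SMAD1, SMAD5 and SMAD9 branch, all had a lower mean in EE-treated horses, by -0.25 to -0.13, and limma's adjusted p was between 0.529 and 0.766. BMP7, of the same branch, was well above background on 11 arrays and differed the other way, by 0.15 (standard error 0.31, adjusted p = 0.842 in limma). Follistatin (FST), which binds activin, the SMAD repressor SKI and the TGF-β response gene KLF10 differed by 0.16, 0.055 and 0.21 to 0.23, and limma's adjusted p was between 0.539 and 0.890.

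The genes most like each member across horses were sought among 460 RefSeq-named genes on 903 probes well above background on every array, after removing the group means, over 19 horses and without a test. Slide was not removed, and its part in these likenesses was not tested. SMAD6 was closest to FCER1A, the alpha chain of the high-affinity IgE receptor of basophils and mast cells (r = 0.80), then to SLC2A4 (0.71) and HTR4 (0.69). Between treatments these 3 probes differed by 0.54, 0.45 and 0.51, EE minus control, and SMAD6 by 0.54. The part of FCER1A-bearing cells in the SMAD6 difference was not tested. SMAD9 was closest to S100A10 (0.78), MIP-2BETA (0.76) and HTR1B (0.72). ACVR1B was closest to CYP2C92 (0.71), GPX6 (0.70) and RSPO1 (0.70). SMAD1 was closest to PTGS2, the inducible cyclooxygenase (0.74), HSD17B4 (0.72) and SULT1E1 (0.62), and SMAD5 to FTL, the ferritin light chain (0.65), TGFB1 (0.63) and LOC100051036 (0.59). Between treatments the probes nearest to SMAD9 differed by 0.21, 0.24 and 0.50, where SMAD9 differed by 0.40, and those nearest to ACVR1B by 0.24, 0.46 and 0.45, where ACVR1B differed by 0.40. Those nearest to SMAD1 differed by 0.50, 0.064 and -0.11, where SMAD1 differed by 0.13. Those nearest to SMAD5 differed by 0.35, 0.26 and 0.20, where SMAD5 differed by -0.035. For comparison, 95% of the 903 probes had an r below 0.41 to 0.49 with a member.

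Of 50 marker genes of blood and other cell types, 10 could be named, on 16 probes. PECAM1, an adhesion protein of endothelium that platelets and leukocytes also carry, had the lowest p among the markers. Its 3 probes differed between treatments by -0.50, -0.49 and -0.44, with 10 of 10 EE values under the control mean. Exact permutation p was 0.0024 to 0.0025, and adjusted p was 0.229 to 0.242 in limma. The permutation test was run only on marker probes at an unadjusted limma p under 0.05, so it repeats that contrast. At an unadjusted p under 0.05, 3 marker probes were lower, those of PECAM1, and 1 was higher, a dim SLC4A1 probe, of 16 in all. Over all probes these shares were 4.24% and 7.44%. Of the monocyte list, CD14 differed by 0.27 and CD68 by -0.00074 (adjusted p = 0.579 and 0.999 in limma). Of the T cell list, CD2 differed by 0.23, CD28 by 0.14 and IL7R by -0.12 (adjusted p = 0.493, 0.715 and 0.807 in limma). HBB varied widely, with a control mean of 11.96 ± 1.73 (SD, n = 9) and an EE mean of 11.93 ± 2.43 (SD, n = 10), and DCN of fibroblasts was well above background on 5 arrays. Within the groups, the 35 relations of the 5 members with 7 markers well above background on every array had adjusted p-values of at least 0.632 for r and 0.480 for rho. The part of cell composition in the differences of SMAD6, SMAD9 and ACVR1B was not tested.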

How the data were processed

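Blood RNA of 19 horses was hybridised to 1-colour Agilent arrays, 1 per horse. The authors deposited, per the file headers from Feature Extraction 10.7.3.1, the background-corrected intensity of each spot with flags, and a table of log2 values. The table was matched, within 0.00086 for 99% of probes on each array, by setting processed signals under 10 to 10 and then scaling to a 75th percentile of 500; their column medians were 5.08 to 5.28. At that floor SMAD6 was on 5 arrays and SMAD5 on 2, so the floor was not used here.

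Outlier spots were left out, spots of a probe averaged, and all 43384 probes fitted with limma 3.58.1 (lmFit and eBayes) in R 4.3.3, with Benjamini-Hochberg adjustment over all probes. The fit was tested on simulated data. Correlations used 100000 permutations within treatments in Python 3.11.15 with scipy 1.17.1. RefSeq names (assembly TB-T2T, names only) were found for 1781 of 3275 probes with such an accession, or 799 genes. No genome build was named, so no coordinates are given.

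The members and lists were chosen with earlier results of these data known. Genes named were all members, the 3 genes most like each, pathway genes well above background on at least 10 arrays (always at an unadjusted p under 0.05), and genes of the marker lists. Alternatives were quantile normalization, median centring, outlier spots kept, a filter on dim probes (25683 kept), the deposited log2 values, normexp with an offset of 50 on the median signal followed by quantile normalization, slide as a block, array brightness or sex as a covariate, the methods' random-variance test, the mean of all probes, and each horse left out. The 16 arrays of scan 1 alone were added after seeing the data, as were the interaction and its alternatives. So were the alternatives for PECAM1, those for the SMAD balance except the mean of all probes, and the random-variance test for the other pathway genes. The number of arrays limits the precision.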

Additional observations from a re-analysis of the deposited data

Results flagged for a closer look

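In 26 groups of readings, those of 13 probes in each treatment, 3 had a single horse far from the others. Chance gives about 1 in 20 for independent, normally distributed groups. All 3 were groups of SMAD5 probes read on the same arrays, so an excess over chance cannot be judged. On the main SMAD5 probe, EE-treated horse646 was at 4.80 and the other EE-treated horses between 3.54 and 4.19, a gap of 0.486 of the range. On the dim SMAD5 probe A_69_P004688, EE-treated horse642 was at 5.33, well above background, and the other EE-treated horses were between 0.28 and 2.16, a gap of 0.628 of the range. On the dim SMAD5 probe A_69_P004686, control horse650 was at 2.61 and the other control horses between 0.079 and 1.19, a gap of 0.56 of the range.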

How the results depend on the processing

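With normexp background correction followed by quantile normalization, the differences between treatments shrank to 0.090 for SMAD6, 0.046 for SMAD9 and 0.15 for ACVR1B, and that of the SMAD balance to -0.031; an added offset of 50 shrinks log2 differences of low signals by construction, and how much of the change it made was not tested. Under the other alternatives these 4 values kept their sign and moved by less than the SD between horses; for the balance all but the mean of all probes were chosen after seeing the data. No alternative brought SMAD1 or SMAD5 past an adjusted p of 0.05 between treatments, or any main probe between sexes or in the interaction. Signs turned as follows, and the cause was not tested. Brightness as a covariate turned the SMAD1 difference between treatments to -0.0070 and between sexes to 0.095. On scan 1 alone, which holds fewer arrays and was chosen after seeing the data, the sex difference was 0.0064 for SMAD1 and -0.0055 for ACVR1B. With slide as a block the sex difference was 0.033 for SMAD5 and -0.017 for ACVR1B, and the SMAD1 interaction was 0.38. The interaction and its alternatives were also chosen after seeing the data.

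The number of the 10 pairs correlated at an adjusted p under 0.05, 1 as reported, was 0 with quantile normalization, 0 with normexp, 0 with slide as a block, 2 with the deposited log2 values and 3 centred on group and sex. It was 1 to 2 with each horse left out, and 2 without control horse650 or EE-treated horse473. Turned correlations were, for SMAD1 and SMAD9, 0.19 with normexp and 0.090 on scan 1; for SMAD1 and SMAD6, 0.088 with normexp, 0.0066 with slide as a block and 0.066 on scan 1; for SMAD5 and SMAD9, 0.13 with slide as a block and 0.039 with the mean of all probes; for SMAD5 and SMAD6, 0.11 with quantile normalization, 0.36 with slide as a block, 0.016 centred on group and sex and 0.0039 on scan 1; and for SMAD5 and ACVR1B, 0.20 with slide as a block. The 2 pathway probes higher in EE-treated horses at an unadjusted p under 0.05 became 1 with brightness as a covariate, 1 on scan 1, and 1 to 4 with each horse left out: 4 without control horse470, and 1 without control horse476, horse477 or horse647 or EE-treated horse473, horse643, horse649 or horse651.

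Leaving out single horses, the difference between treatments ran from 0.025 to 0.30 for SMAD1 and -0.12 to 0.018 for SMAD5. The sex difference ran from -0.22 to 0.044 for SMAD1, -0.14 to 0.031 for SMAD5, 0.066 to 0.15 for SMAD9 and 0.054 to 0.18 for ACVR1B. The interaction ran from -0.60 to -0.038 for SMAD1, -0.11 to 0.32 for SMAD5 and 0.25 to 0.51 for ACVR1B. The correlation ran from -0.24 to 0.20 for SMAD1 and SMAD5, -0.12 to 0.13 for SMAD1 and SMAD9, -0.19 to 0.072 for SMAD1 and SMAD6, -0.16 to 0.11 for SMAD5 and SMAD6 and -0.15 to 0.13 for SMAD5 and ACVR1B. The groups share no horse, so pairing was not possible. Low signal over background limits SMAD6 and the dim probes of SMAD1 and SMAD5.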
